A study of Arabidopsis thaliana with 11 samples.

Results

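Polyploid plants carry extra sets of chromosomes, and many flowering plants, crops among them, descend from polyploid ancestors. In Arabidopsis thaliana a doubled genome commonly goes with larger cells, and where all transcripts scale with gene copies alike their shares of the RNA stay the same. The transcripts described here were chosen as higher in tetraploid than in diploid seedlings of this species, and are those that remain when the jasmonate-linked factor ORA47, the early stress genes PUB19, AR781 and STZ, 5 further listed probe sets and the chloroplast genes are set aside. There were 68 of them among 22746 plant probe sets on the array. A probe set, the set of short probes that reads a transcript, was a member if its mean signal over the tetraploid arrays was at least 84, its mean log2 signal was at least 1 higher in tetraploids than in diploids, and every tetraploid array lay above both diploid arrays. The members were thus chosen by their signals on the diploid and tetraploid arrays, and the differences between these groups are given as a description with no test.

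Whole seedlings of the ecotype C24 were grown on agar under long days and harvested at an early leaf stage, and their RNA was hybridised to Affymetrix ATH1 arrays, 1 biotin-labelled sample per array. Diploids (DIP, 2 chromosome sets, n = 2 arrays) were C24 itself, and tetraploids (TET, 4 sets, n = 3) had been obtained from C24 with colchicine, an inhibitor of spindle microtubules. Triploids (3 sets) came under the codes TFE (n = 3) and TME (n = 3), both labelled as the offspring of a tetraploid and a diploid parent, and the labels do not spell out what separates the codes. All arrays carried the same stock code. How many independent tetraploid lines or sowings were used is not stated, and a p-value here reflects only how these arrays vary, in part perhaps for technical reasons.

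Each array had been scaled by the authors to a common trimmed mean, so every value is relative to the rest of that array, and fewer cells of a type cannot be told apart from less RNA per cell. Rank correlations over 15075 probe sets above background ran from 0.942 to 0.973 among 10 of the arrays and from 0.861 to 0.88 between the remaining array, TFE replicate 3, and the others. The ratio of 3′ to 5′ signal of actin, a sign of RNA quality, was, in the newer design of its control probes, 0.506 and 0.524 in DIP, 0.308 to 0.403 in TET, 0.407 to 0.539 in TME and 0.559 to 0.92 in TFE, so it did not overlap between DIP and TET or between TFE and TME. In the older design, the ratio was 2.23 and 2.44 in DIP, 1.54 to 2.30 in TET, 2.87 to 2.95 in TME and 1.20 to 2.92 in TFE, and there TFE and TME overlapped. The GAPDH ratio was 0.870 to 1.15 over all arrays. The ubiquitin ratio was 0.981 and 1.04 in DIP, 1.01 to 1.29 in TET and 0.906 to 0.995 in TME, and in TFE it was 0.968 and 1.06 on replicates 1 and 3 but 1.60 on replicate 2. The part of RNA quality in the results was not tested. The level of 18 spiked-in hybridisation controls was 157 and 321 in DIP, 242 to 257 in TET, 272 to 425 in TME and 372 to 627 in TFE, where TFE and TME overlapped. Of the markers listed to check the tissue, the green shoot gene RCA (Rubisco activase) was measured at 4236 and 6368 in DIP and 4743 to 5328 in TET. It was 4906 to 5692 in TME and 5653 to 6785 in TFE, so every TFE array lay above every TET array. The part of shoot tissue in the results was not tested. The root hair expansin EXPA7 was dim, at 27.3 and 31.2 in DIP, 32.6 to 55.1 in TET, 24.7 to 31.2 in TME and 7.79 to 33.2 in TFE; it was above DIP on every TET array (limma, adjusted p = 0.87), and the part of root tissue in the results was not tested. RCA was the 1 measured of 6 green shoot markers and EXPA7 the 1 of 8 root markers, and no listed marker of seeds or trichomes was measured.

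Of 7635 plant probe sets with a mean TET signal of at least 84, 78 were at least 1 log2 unit above DIP, and 77 of these did not overlap between the groups. This is 1.01% of the bright probe sets, a share fixed by the rule. Setting aside 7 listed probe sets, STZ and a chloroplast transcript left the 68. The same thresholds turned downward, on the DIP mean, were met by 19 probe sets. Members spanned a log2 TET minus DIP difference from 1.01 to 3.06 with a median of 1.33, a fold of 2.52, and a mean TET signal from 84.4 to 1025 with a median of 188. All 68 passed the filter for signal above background that the tests use, and no member had a value at the floor. For 256300_at, 245668_at and 249065_at both DIP signals lay below percentile 40 of their array, and for 257280_at 1 of them did, so the sizes of these differences are uncertain.

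At the edge of the rule, AT3G04640, AT1G19330 and 251705_at were just inside with log2 differences of 1.0053, 1.0069 and 1.0133. AT2G26190, the cold-regulated gene COR15A and AT5G50450 were just outside with 0.97, 0.98 and 0.98. In signal, 258139_at, 247543_at and 245668_at were the dimmest members with TET means of 84.4, 86.7 and 87.3, while 245711_at, 250007_at and AT4G29780 missed the threshold with 83.9, 82.7 and 82.2.

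**Figure D1:**
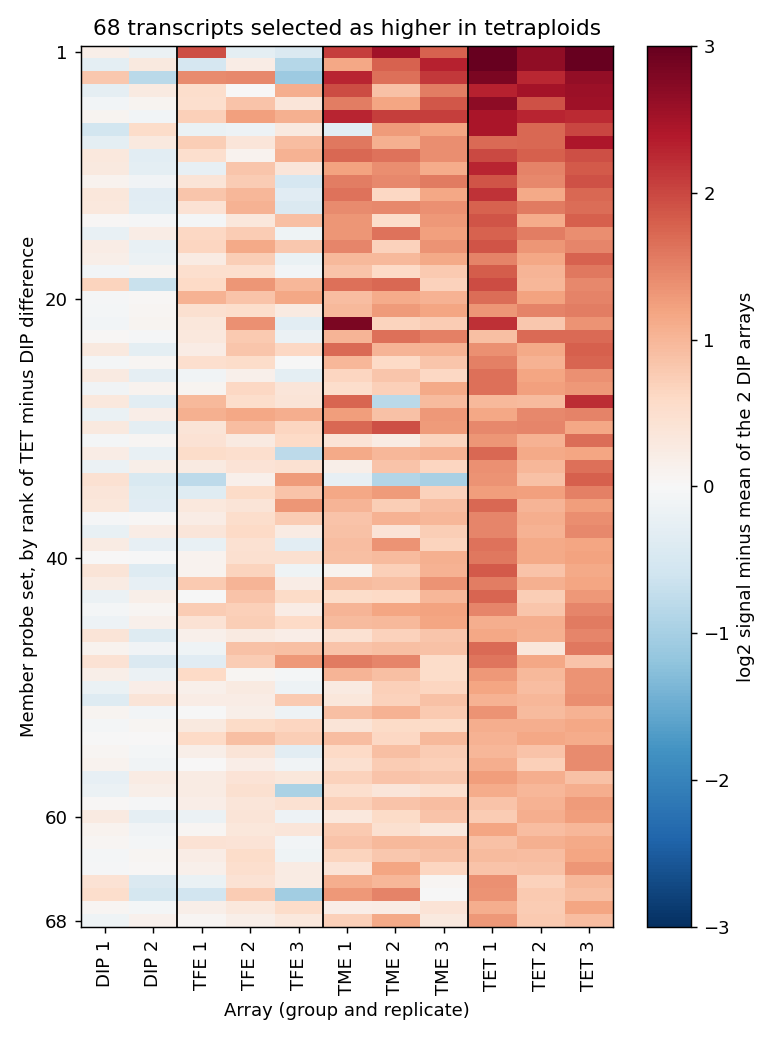
Heat map of the 68 members (rows, from the largest to the smallest TET minus DIP difference) on the 11 arrays (columns, by group and replicate); colour is the log2 signal minus the mean of the 2 DIP arrays, and the scale ends at 3 in either direction. The DIP and TET columns were used to choose the rows. Most rows are paler in TFE than in TME, and row 34, AT4G22490, is below the DIP mean on all TME arrays.

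Annotation reached few of these transcripts. Of the 68 members, 18 had 1 gene in the platform annotation, 1 had several genes and 49 (72.1%) were unnamed, against 48.3% unnamed among all probe sets of the same brightness. Probe sets with no gene or several are given by their identifier. The 18 named members lay on chromosomes 1 to 5 in numbers of 3, 5, 4, 3 and 3, read from their locus names. In the gene order of the TAIR10.1 table, AT2G38790 and AT2G38820 had 2 protein-coding genes between them, and AT5G03230 and AT5G03350 had 12. Median log2 TET minus DIP differences were 1.25 in the named and 1.35 in the unnamed members.

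The largest differences belonged to unnamed transcripts. 256300_at had a signal of 11.8 and 9.20 in DIP and 105, 65.4 and 95.3 in TET, the largest log2 difference of the set at 3.06. It was 44.1, 59.3 and 35.6 on the TME arrays, above DIP on each, while in TFE it was 39.8, 8.50 and 7.73, so that TFE replicate 1 stood apart from the other two. 252367_at read 27.6 and 41.6 in DIP and 315, 215 and 297 in TET (3.01). 245668_at was 25.2 and 8.26 in DIP and 102, 69.4 and 90.2 in TET (2.58), and on the log2 scale its DIP values differed from each other more than those of any other member. 249065_at had 14.3 and 20.9 in DIP against 85.5, 96.8 and 102 in TET (2.45), and 253872_at had 48.2 and 54.3 against 329, 194 and 298 (2.38). The last of these had both DIP signals above percentile 40 of their array, and its TFE signals of 72.0, 92.4 and 65.4 and TME signals of 149, 117 and 185 formed groups that overlapped neither each other nor DIP or TET.

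The named members belong to many protein families and are given one by one. AT1G76600, of the plant-specific PADRE family, had the second largest difference of the named members: its signal was 59.4 and 82.2 in DIP and 238, 204 and 183 in TET, a log2 difference of 1.57. The TME arrays, at 174, 214 and 165, reached the TET range, and the TFE arrays, at 107, 118 and 64.3, overlapped DIP through replicate 3. AT5G03350, a legume lectin family protein, rested at 84.6 and 55.7 in DIP and 177, 151 and 238 in TET (1.43), with 222, 139 and 141 in TME and 80.3, 122 and 106 in TFE. Its TME and TET signals overlapped. AT3G56880 encodes a VQ-motif protein, a family whose members bind WRKY transcription factors. It had nearly equal DIP signals of 205 and 202, TFE signals of 220.4, 283 and 285, TME signals of 380.0, 395 and 426 and TET signals of 608, 446 and 469, so that no group overlapped another and the order was DIP, TFE, TME, TET.

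AT4G05070, of the wound-responsive protein family, read 213 and 184 in DIP, 198, 226 and 185 in TFE, 278, 338 and 325 in TME and 424, 324 and 530.0 in TET. Here TFE lay within or close to the DIP range and TME lay above it. AT3G10020, a protein of unknown function whose transcript is known to rise under low oxygen, read 96.6 and 90.5 in DIP and 172, 196 and 207 in TET, with 169.9, 183 and 182 in TME and 126, 124 and 88.2 in TFE. The TME arrays overlapped TET and lay above all TFE and DIP arrays. AT5G03230 encodes an S40-like protein, a family linked to leaf senescence. Its signal was 258 and 153 in DIP and 442, 413 and 552 in TET (1.23). Its TFE signals of 220.4, 239.8 and 229 lay between the DIP arrays, while those of TME, 273, 322 and 353, lay above both.

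Other named members encode secreted proteins, enzymes or transporters. AT2G37870, of the lipid-transfer and protease-inhibitor superfamily, had the largest difference of the named members, with 77.4 and 48.8 in DIP and 275, 135 and 202 in TET (1.67). Its TME signals of 191, 94.0 and 136 reached into the TET range, and its TFE signals of 109, 122 and 48.4 into the DIP range. AT4G22490, of the same superfamily, had 138 and 72.3 in DIP and 255, 183 and 344 in TET (1.34). It was the 1 member of 68 whose TME mean was below its DIP mean: the TME arrays, at 84.4, 54.5 and 50.6, lay around the lower DIP array, and the TFE arrays, at 57.9, 111 and 244, ranged from below DIP to within the TET range, the highest value being that of the outlying replicate 3.

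AT4G17470, an alpha/beta hydrolase, varied little within groups, with 103 and 106 in DIP, 159, 196 and 175 in TFE, 198, 161 and 206 in TME and 214, 232 and 227 in TET. Both triploids lay above DIP and below TET on every array, and overlapped each other. AT1G34510, a class III peroxidase, had means of 82.7 ± 21.7 (SD, n = 2) in DIP and 168.4 ± 28.0 (SD, n = 3) in TET. AT2G41190, of the transmembrane amino acid transporter family, read 49.4 and 35.0 in DIP, 71.1, 83.8 and 48.2 in TFE, 80.7, 77.4 and 105 in TME and 121, 87.5 and 95.02 in TET, and is among the few members whose TFE mean passed the midpoint between DIP and TET. AT3G04640, a glycine-rich protein, had 44.8 ± 5.27 (SD, n = 2) in DIP and 90.6 ± 17.61 (SD, n = 3) in TET.

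The remaining named members have no role given here. AT3G19030, the brightest of the named members, read 256 and 278 in DIP, 372, 388 and 322 in TFE, 522, 647 and 606 in TME and 668, 743 and 778 in TET, and its groups followed this order with no overlap. AT2G38820 had close DIP signals of 62.7 and 68.1 and TET signals of 139, 139 and 147, with 79.9, 98.0 and 103 in TFE and 85.4, 97.2 and 97.9 in TME: the triploids overlapped each other and lay apart from both even ploidies. AT2G38790 had means of 56.2 ± 21.1 (SD, n = 2) and 138 ± 50.6 (SD, n = 3) in DIP and TET, and AT5G15190 of 40.6 ± 7.07 (SD, n = 2) and 101 ± 34.4 (SD, n = 3). For AT2G27830 these were 57.4 ± 13.6 (SD, n = 2) and 120.0 ± 14.8 (SD, n = 3), and for AT1G19330 67.8 ± 4.24 (SD, n = 2) and 137 ± 19.9 (SD, n = 3). In AT1G19330, as in AT4G22490, the TFE mean, 86.9 ± 11.6 (SD, n = 3), was above the TME mean, 81.9 ± 6.90 (SD, n = 3), and the arrays of these groups overlapped.

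**Figure D2:**
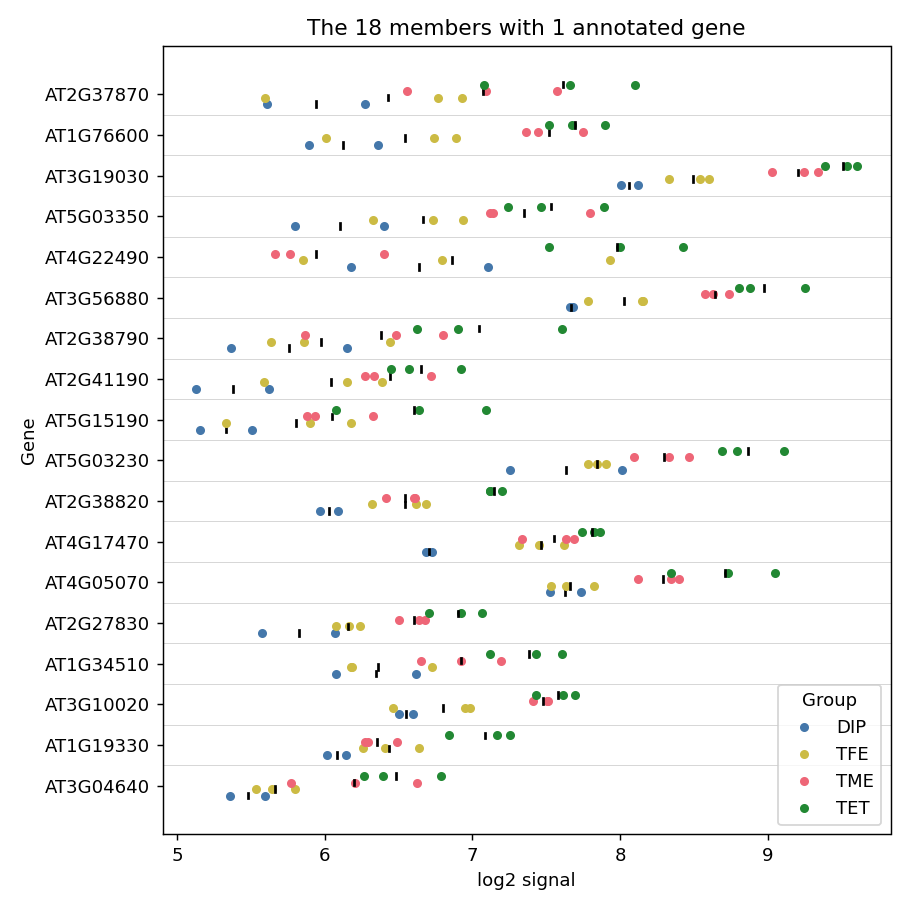
log2 signal (x axis) of the 18 members with 1 annotated gene (y axis, the largest TET minus DIP difference at the top); each point is an array, coloured by group, and black ticks are group means. All TME points lie right of both DIP points in each row except AT4G22490 and AT2G38790, and TFE points overlap DIP in many.

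Bright members without a single annotated gene behaved in different ways in the triploids. 253125_at, with the highest TET mean of the set, read 484 and 523 in DIP, 583, 736 and 461 in TFE, 799, 887 and 920.0 in TME and 976, 956 and 1143 in TET. Its TME arrays lay above all DIP and TFE arrays and below all TET arrays. 246996_at had 312 and 302 in DIP, 354, 398 and 419.6 in TFE, 501, 557 and 579 in TME and 556, 628 and 744 in TET, with the TME and TET ranges overlapping. 245928_s_at, whose suffix marks probes shared by similar transcripts, as in 2 of the 68 members, spread far more: 772, 132 and 443 in TME and 455, 445 and 1079.6 in TET, so that TME replicate 2 fell below both DIP arrays (287 and 186).

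How far the triploids had moved from diploid toward tetraploid was expressed as a position, the log2 difference of the triploid mean from DIP as a percent of the TET minus DIP difference. The DIP and TET arrays in this measure were used by the rule, so positions are a description. In TME the median position was 70.1% (quartiles 56.2% and 81.5%, 68 members), and in TFE it was 25.9% (quartiles 17.0% and 37.5%). On the log2 scale the median TME minus DIP difference was 0.93 and the median TFE minus DIP difference 0.36, against -0.00034 and -0.03 over the 7635 bright probe sets. By mean log2 signal, TME lay between DIP and TET for 66 members and above their midpoint for 57. Among the bright probe sets the shares were 22.4% and 50.4%. The TFE mean lay between them for 62 members and above the midpoint for 7, against 16.0% and 43.4% of the bright probe sets. The order DIP, TFE, TME, TET of the means held for 58 of the 68, against 6.10% of the bright probe sets. Only a probe set with TET above DIP can count as between or as in this order. The rule gave every member TET above DIP, while many bright probe sets lack it. The shares are therefore not a like measure, and nothing is read from the contrast.

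**Figure D3:**
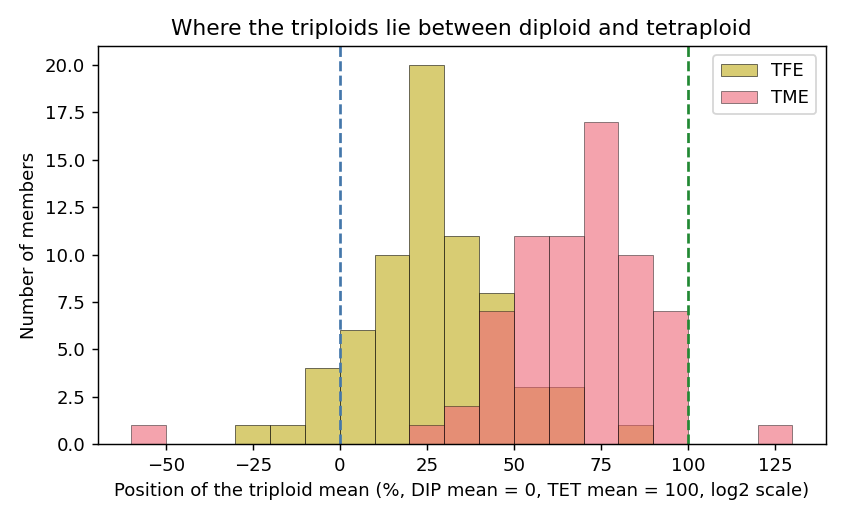
Number of members (y axis) by position of the triploid mean (x axis, percent; dashed lines mark the DIP mean at 0 and the TET mean at 100), for TFE and TME in bins 10 percent wide. The TFE positions gather around a median of 25.9% and the TME positions around 70.1%, with single TME members at -52.2% and 122%.

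Counts over single arrays are given for description. Every TME array lay above both DIP arrays for 60 of the 68 members, against 13% of the bright probe sets. Every TFE array did so for 22 members, against 10.8% of the bright probe sets. Without TFE replicate 3 this number was 38, against 18.4% of the bright probe sets. It was 37 without DIP replicate 1 and 34 without TFE replicate 1. Leaving out an array can only keep or raise it, for the bright probe sets as well, and their shares without these arrays were not computed. Every TET array lay above every TME array for 34 members (8.59% of the bright probe sets) and above every TFE array for 59 (11.5%). These counts share the DIP or TET arrays with the rule, which favours members with low DIP and high TET signals, and nothing is read from them about the members.

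The median of the members' log2 differences from the DIP mean was 0.26, 0.52 and 0.31 on the TFE arrays, 0.95, 0.90 and 0.95 on the TME arrays and 1.47, 1.09 and 1.43 on the TET arrays. TFE replicate 3, the array that stood apart over all probe sets, lay between the other TFE arrays in this median. TET replicate 2 held the lowest TET signal for 52 of the 68 members, against 29.8% of the bright probe sets, and TFE replicate 2, the array with the high ubiquitin ratio, held the highest TFE signal for 40, against 33.2%. The median SD of log2 signals within a group was 0.26 in DIP, 0.32 in TFE, 0.23 in TME and 0.27 in TET for the members, and 0.11, 0.20, 0.13 and 0.14 for the bright probe sets.

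**Figure D4:**
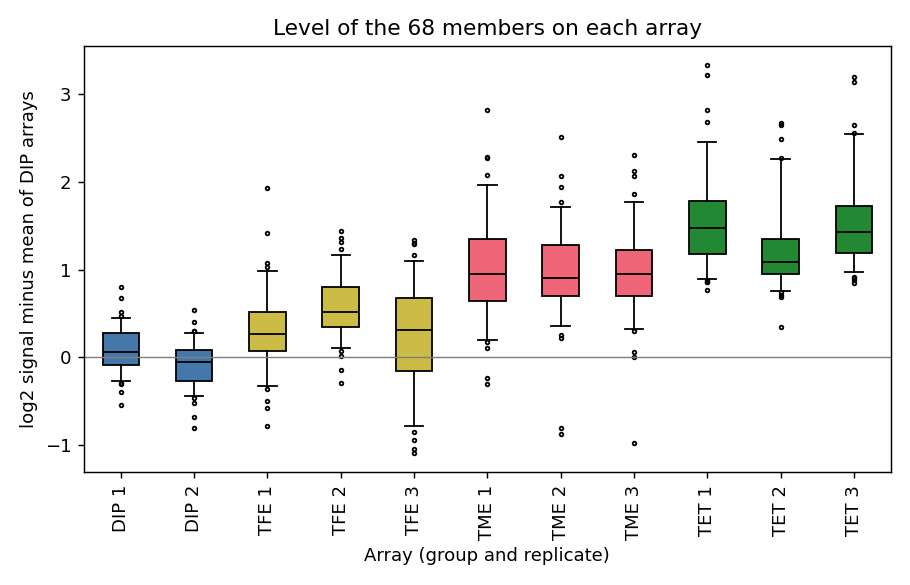
Box plots of the members' log2 signal minus the mean of the DIP arrays (y axis) on each of the 11 arrays (x axis); boxes span the quartiles with the median as a line, whiskers the percentiles 5 and 95, and dots the members beyond. Array medians are 0.26 to 0.52 in TFE, 0.90 to 0.95 in TME and 1.09 to 1.47 in TET.

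Neither triploid code entered the rule, so the thresholds were not applied to TFE or TME signals. The members were chosen with earlier results of these data known. Whether a trait of the arrays, such as RNA quality, links the TET minus DIP and TFE minus TME differences was not tested. The p-values are not wholly free of the selection, since the fit took its spread from all 11 arrays, DIP and TET included. Over the 15075 probe sets above background, limma called 4 probe sets between TFE and TME (0.0265%; adjusted p under 0.05), of which 3 were lower in TFE (0.0199%), and these 3 were all members (4.41% of the 68). No member was called higher in TFE. At an unadjusted p under 0.05, 43 of the 68 members were lower in TFE and 1 was higher, against 5.76% of all probe sets tested lower in TFE. Fitted to the 6 triploid arrays alone, limma called no probe set. In that fit 39 members and 1090 of all probe sets tested had an unadjusted p under 0.05. The mean log2 signal was lower in TFE than in TME for 65 members, against 57.4% of the bright probe sets. The median TFE minus TME log2 difference was -0.57 over the members, -0.04 over the bright probe sets and 0.00081 over all probe sets tested. The actin ratio of the newer control design was also higher on every TFE array, at 0.559 to 0.92, than on any TME array, at 0.407 to 0.539, and its part in this difference was not tested.

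252367_at differed most: its signals were 23.9, 39.7 and 18.8 in TFE and 75.3, 115 and 167.7 in TME, a log2 TFE minus TME difference of -2.12 ± 0.31 (SE; limma, adjusted p = 0.039). The TFE arrays lay at the DIP level (27.6 and 41.6) while TME lay between DIP and TET. On TFE replicates 1 and 3 its signal was below percentile 40 of the array (26.8 and 37.6), so the size of its difference is uncertain. 254120_at read 52.6, 75.5 and 67.1 in TFE and 155, 134 and 134 in TME, a difference of -1.13 ± 0.17 (SE; limma, adjusted p = 0.039). Both triploids were above its DIP signals of 34.1 and 30.2, and TME overlapped its TET signals of 175, 155 and 152. 255742_at read 144, 165 and 129.6 in TFE and 269.9, 297 and 249 in TME, a difference of -0.90 ± 0.14 (SE; limma, adjusted p = 0.048). In TFE it overlapped DIP (153 and 137), and in TME it overlapped TET (371, 279.6 and 298). None of these 3 has an annotated gene.

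Of the named members, none passed the threshold between the triploids. AT3G19030 was nearest, with -0.71 ± 0.12 (SE; limma, adjusted p = 0.063). With array quality weights it passed, at an adjusted p of 0.037, and over its alternatives the adjusted p ran from 0.037 to 1. AT1G76600 had -0.97 ± 0.21 (SE; limma, adjusted p = 0.28), AT3G56880 -0.62 ± 0.14 (SE; limma, adjusted p = 0.28) and AT3G10020 -0.68 ± 0.15 (SE; limma, adjusted p = 0.28), so that these 3 had TME over TFE folds of 1.53 to 1.96 by mean log2 signal, without a call. AT4G05070 had -0.63 ± 0.16 (SE; limma, adjusted p = 0.36) and AT5G03350 -0.69 ± 0.23 (SE; limma, adjusted p = 0.41). AT4G22490 went the other way with 0.92 ± 0.41 (SE; limma, adjusted p = 0.46), and AT2G38820, AT4G17470 and AT1G19330 had differences of -0.0043, -0.09 and 0.08. AT4G22490, AT1G19330 and 245928_s_at were the 3 members with a higher mean log2 signal in TFE.

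**Figure D5:**
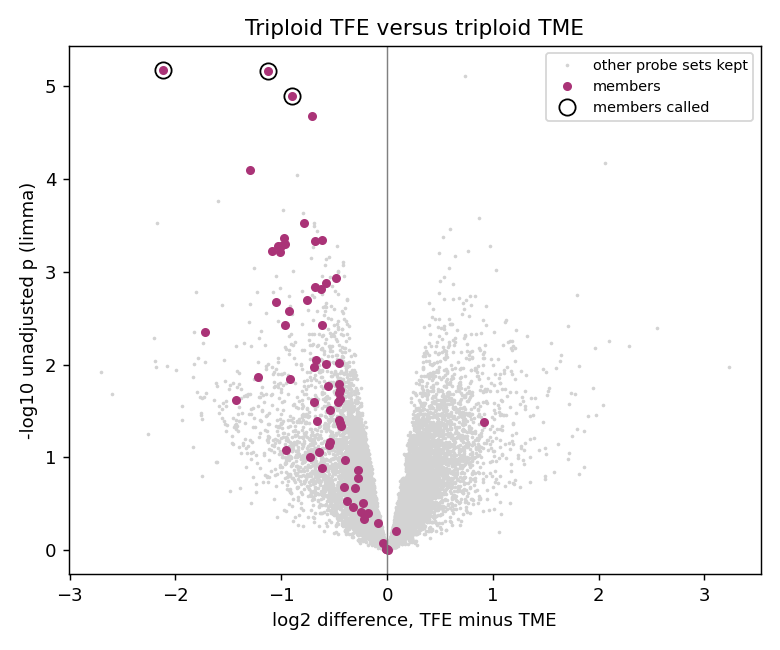
log2 TFE minus TME difference (x axis) against -log10 of the unadjusted limma p (y axis) for the 15075 probe sets tested; members are purple, other probe sets grey, and circles mark the 3 called members. All but 3 of the members lie left of 0.

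The 3 calls depended on which arrays were fitted. No member was called without DIP replicate 1 or 2, TFE replicate 3, any of the TME replicates or any of the TET replicates, and without TFE replicate 1 none of the 3 was called, but 256300_at was (adjusted p = 0.032). Its signals on TFE replicates 2 and 3, 8.50 and 7.73, were below percentile 40 of those arrays (28.6 and 37.6). Without TFE replicate 2 all 3 were called together with 260287_at. In the fits with no call, 36 to 44 members had an unadjusted p under 0.05, as did 1010 to 1471 of the 15075 probe sets. No member was called either when the spiked-in control level was a term of the fit. There 66 of the 68 were lower in TFE with a median of -0.56. An unadjusted p under 0.05 was reached by 32 members and by 425 of the 15075 probe sets. Every TME array lay above every TFE array for 32 members, against 9.01% of the bright probe sets. With TFE replicate 3 set aside this held for 38 members, against 12.7% of the bright probe sets. No member had every TME array below every TFE array, against 6.08% of the bright probe sets.

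A few members departed from the common order of the triploids, and those described here were chosen after their values were seen. The TFE mean passed the midpoint between DIP and TET for 7 members. 264214_s_at, assigned to several genes, had the highest TFE position at 81.4%: its signals were 69.5 and 92.4 in DIP, 169, 180.0 and 170.0 in TFE, 190.5, 147 and 198 in TME and 179, 217 and 225 in TET, so that both triploids were well above DIP and overlapped each other. 247509_at, with a TFE position of 69.7%, read 43.5 and 46.3 in DIP, 91.9, 81.0 and 101 in TFE, 85.9, 96.3 and 92.0 in TME and 143, 104 and 126 in TET, and AT4G17470 followed with 68.5%. The others were 246293_at, 245627_at, AT2G41190 and 247723_at at 66.1%, 55.3%, 52.5% and 51.0%.

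The mean log2 signal was lower in TFE than in DIP for 6 members, against 55.9% of the bright probe sets. Among the 6 were 252367_at, with a position of -12.4%, and 251705_at, with -28.9%. In 251705_at the arrays spread widely, with 149.5 and 72.9 in DIP, 69.7, 176 and 50.4 in TFE, 256, 294 and 104 in TME and 265, 181 and 195 in TET, so that DIP and TFE lay below TET and TME overlapped all of them. 247543_at was the 1 member with a higher mean log2 signal in TME than in TET. Its mean signals were 108 ± 23.96 (SD, n = 3) and 86.7 ± 9.72 (SD, n = 3), and the arrays of these groups overlapped. At the low end of TME, AT1G19330, 258139_at and 257280_at had positions of 26.9%, 32.9% and 34.7%. For 258139_at the signals were 31.4 and 33.7 in DIP, 44.2, 39.5 and 48.9 in TFE, 43.6, 38.8 and 51.3 in TME and 81.6, 66.8 and 105 in TET, with both triploids near the DIP end.

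Genes in 10 lists, 191 loci in all, for starvation, early stress, jasmonate, auxin, the circadian clock, cold and drought, heat, ethylene, nitrate and sulfur, and autophagy were set beside the members. Of these loci 30 were measured by a probe set with 1 annotated gene, and none of these was a member. Only the 18 members with 1 annotated gene could match a list, and the 49 unnamed members could not. The absence of members from the lists therefore does not place the members outside these pathways. In TET versus DIP 5 of the 30 passed the test (limma, adjusted p under 0.05), all higher in TET (ORA47, PUB19, AR781, AT3G15450 and AT2G20670), beside 0.829% of all probe sets called and 0.597% called higher in TET. Without DIP replicate 2, 2 of them passed. All 5 are among the transcripts that the rule sets aside by name, and lists and rule were chosen with this contrast known, so the count is a description and not independent evidence. STZ, also set aside, had an adjusted p of 0.064. COR15A, a chloroplast protein of cold acclimation, missed the rule's minimum difference at 0.98 (adjusted p = 0.056), with mean signals of 160.4 in DIP and 316 in TET. The transcription factor gene WRKY22 met that minimum at 1.12 (adjusted p = 0.57), with every TET array above both DIP arrays, and missed the rule on signal with a TET mean of 46.3. The clock gene GI had 0.26 (adjusted p = 0.8).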

How the data were processed

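RNA of 11 whole-seedling samples was measured on Affymetrix ATH1 arrays, 1 per array. The deposited intensity values are on a linear scale, and MAS5 is the tool named, without a version, per the submitters' processing notes. The 2% trimmed mean of every array is 100.01, so each value is relative to its array and a change in total RNA is not seen. Precision is limited by the number of arrays.

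Signals were floored at percentile 10 of the plant values (2.279) and taken to log2. Probe sets above percentile 40 of their array on at least 2 arrays were kept (15075 of 22746). Group means of all 11 arrays were fitted with limma 3.58.1 (R 4.3.3), with an intensity trend and Benjamini-Hochberg adjustment over all probe sets kept. A call needed an adjusted p under 0.05. The fit was also run on simulated arrays, with independent noise of the same spread on every array for a given probe set. Such data leave out an array that stands apart, as TFE replicate 3 does here, and nothing is read from that run. The fit also covered TET minus DIP for every probe set kept, members included. For the members its results are not given, since these arrays chose them. No test was run on triploid minus DIP, which shares the DIP arrays with the rule.

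The members and the gene lists were chosen with earlier results of these data known. Named genes were those with 1 annotated gene and the 12 largest differences, the 8 highest TET means or the 6 smallest p between TFE and TME. The other named members, and the members singled out for their triploid values or brightness, were chosen after their values were seen. Groups came from the sample titles. Alternatives were another normalization, filter, floor, signal minimum and model, and leaving out each array. Gene names came from the platform annotation and neighbours from the TAIR10.1 gene table. Promoter motifs were not analysed here, and no sequence was used.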

Additional observations from a re-analysis of the deposited data

Results flagged for a closer look

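For 3 members the triploid codes differed by the test of that difference (limma). All are lower in TFE than in TME on every array, and none has an annotated gene. 252367_at had a log2 TFE minus TME difference of -2.12, with mean signals of 27.5 and 119. Its size is uncertain, since the signals on TFE replicates 1 and 3 lay below percentile 40 of their array. 254120_at had -1.13, with means of 65.1 and 141. 255742_at had -0.90, with means of 146 and 272. Each kept its call in 2 of 18 alternative settings.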

How the results depend on the processing

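The rule gave 68 members, 63 after quantile normalization and 68 with a floor at percentile 20. A minimum TET signal set to 42 gave 111, and doubling the minimum gave 37. Leaving out a DIP or TET array gave 59 to 83. The TME minus DIP median of 0.93 was 0.98 as a mean over members and 0.85 to 1.00 with an array left out. For TFE minus DIP the range with an array left out was 0.26 to 0.42, and for TFE minus TME it was -0.65 to -0.51. With an array left out, 61 to 64 members had every TME array above DIP, 24 to 38 every TFE array above DIP, and 34 to 42 every TME array above every TFE array. Leaving out an array can only keep or raise these counts, which were 60, 22 and 32 with all arrays. They were 60, 19 and 36 after quantile normalization, and 60, 19 and 33 with arrays centred on the median. With all arrays the shares of the bright probe sets were 13%, 10.8% and 9.01%. Without TFE replicate 3 they were 18.4% for TFE above DIP and 12.7% for TME above TFE. For the other alternatives they were not computed, so nothing is read from these counts. Calls between TFE and TME depended on the fit. The 4 calls over all probe sets and the 3 among members became 0 and 0 under quantile normalization, no filter on dim probe sets, no intensity trend, only the 6 triploid arrays, the replicate block and the control level in the fit. In these fits 32 to 46 members had an unadjusted limma p under 0.05. Over all probe sets tested 425 to 2157 did, the most with no filter, where 22746 were tested. Array quality weights gave 7 and 5, among them AT3G19030 (adjusted p = 0.037) and 267357_at. Leaving out an array gave 0 to 6 over all probe sets and 0 to 4 among members. The adjusted p of 252367_at and 254120_at ran from 0.023 to 0.5 and that of 255742_at from 0.036 to 1 over the alternatives. The cause was not tested. List calls in TET versus DIP, 5, were 2 to 5 with an array left out and 5 with the replicate block. Same-numbered TFE and TME arrays, the groups tested, correlated in their deviations at -0.0577, 0.0975 and 0.02, against -0.0802 to 0.0589 for other numbers. So few arrays cannot settle whether the numbers pair them. Same-numbered TME and TET arrays correlated at 0.1035, 0.1207 and 0.1396, against -0.1325 to 0.0267 for other numbers. Whether the numbers pair these groups was not tested, and no test compared TME with TET. Over all 15 same-numbered pairs r ran from -0.19 to 0.14, and over the other pairs from -0.19 to 0.19. Of the 11 arrays, 3 correlated best with their own number. The direction of the member medians held under all alternatives run.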
